A study of Homo sapiens with 402 samples.

Results

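Thiram at 25 µM was compared with its solvent, dimethyl sulfoxide (DMSO), in MCF10A, a non-tumorigenic epithelial line from human breast. Thiram is a dithiocarbamate disulfide used as a fungicide. The series measured RNA in this line 48 h after dosing with 1 of 21 chemicals, and 402 of its libraries were at hand. The comparison used, of these, the 4 libraries labelled as thiram at 25 µM and the 15 libraries labelled as controls at dose 0 with DMSO on the same plate, by plate name and plate barcode. All were wild type by their labels, came from cells at passage 105 plated at 500 per well, and had 48 h of exposure. The 4 thiram libraries at 2.5 µM of the same plate served as a lower dose, in a comparison with no control library on either side. Arsenic (4 libraries), cadmium (2) and copper (4) at 25 µM, on another plate with 15 water controls, served as a comparison with other chemicals.

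The labels number the dosed replicates 1 to 4 and the controls from 49 to 64. Replicates 1 and 2 with controls 49 to 56 are called the lower-numbered set, and replicates 3 and 4 with controls 57 to 64 the higher-numbered set. The sets share no library, so each gave its own estimate of the thiram effect. The labels call the dosed replicates biological but do not say that they came from separate cultures. P-values of comparisons on the plate measure the spread within groups over its 95 libraries, fitted together, and not that of the 4 thiram libraries alone. This spread may be technical in part. Total counts were 6.29, 5.70, 5.33 and 2.46 M (mega) in thiram replicates 1 to 4. The 8 controls of the lower-numbered set held 15.1 to 22.5 M counts and the 7 controls of the higher-numbered set 2.31 to 4.73 M, so the thiram libraries were shallower than their controls in the lower-numbered set, and deeper (replicate 3) or within the range of the controls (replicate 4) in the higher-numbered set. Counts are reads without molecular identifiers, and counting intervals cover counting error only. CPM are counts per 1 M of the library total after TMM scaling, which adjusts the libraries to each other. The summed level of 13 epithelial markers was 3991 to 5889 CPM in the thiram libraries and 3867 to 4997 CPM in the controls. Its members moved both ways, with KRT17 at 818 to 1233 CPM with thiram against 144 to 398 CPM, and KRT5 at 333 to 651 CPM against 1024 to 1439 CPM. Markers of fibroblasts summed to 41.9 to 51.1 CPM in the thiram libraries and 29.4 to 82.8 CPM in the controls, with COL1A2, PDGFRA, PDGFRB and LUM at 0 in all thiram libraries. Immune markers summed to 3.16 to 25.4 CPM against 18.7 to 58.4 CPM, with PTPRC and MS4A1 at 0 in the thiram libraries. CD14 made up nearly all of the control sum, at 18.7 to 58.4 CPM, and was at 3.16 to 16.3 CPM with thiram. ITGAM, CD3E and CD3D were at 0 in all controls and reached 7.5, 1.77 and 1.63 CPM with thiram. Endothelial markers summed to at most 14.1 CPM.

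Dithiocarbamates bind copper and zinc and react with protein thiols. Cells meet excess zinc, copper or cadmium through the factor MTF1, which binds metal response elements and switches on metallothioneins and the zinc exporter SLC30A1. Misfolded protein frees HSF1 to induce heat shock genes, oxidants and electrophiles release NRF2, and stress on translation or on the endoplasmic reticulum acts through the factor ATF4. These are textbook pathways and give the order in which the gene lists are described.

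Picked from a larger number searched, the promoters of 6 genes of these pathways are printed, each with a match to a motif. They are the 250 bases before the start of each gene in RefSeq, build GRCh38.p14, written 5′ to 3′ on the strand of the gene, with matches to a motif in capitals. Metal response elements were searched as TGCGCNC and TGCACNC, heat shock elements as the units GAA, TTC and GAA, or TTC, GAA and TTC, with NN between units, and amino acid response elements as TGATGCAA, on both strands. A match is a description of letters and not a measured site. The first lines are metallothionein genes, MT1X with 4 matches, MT1B with 3 and MT2A with 7, and SLC30A1 with 1.
MT1X, chr16:56682220-56682469, plus strand: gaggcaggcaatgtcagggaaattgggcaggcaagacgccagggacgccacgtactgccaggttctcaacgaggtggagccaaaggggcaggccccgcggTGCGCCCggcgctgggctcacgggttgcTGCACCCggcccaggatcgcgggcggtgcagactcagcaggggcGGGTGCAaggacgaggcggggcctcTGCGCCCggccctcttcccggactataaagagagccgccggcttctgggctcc
MT1B, chr16:56651636-56651885, plus strand: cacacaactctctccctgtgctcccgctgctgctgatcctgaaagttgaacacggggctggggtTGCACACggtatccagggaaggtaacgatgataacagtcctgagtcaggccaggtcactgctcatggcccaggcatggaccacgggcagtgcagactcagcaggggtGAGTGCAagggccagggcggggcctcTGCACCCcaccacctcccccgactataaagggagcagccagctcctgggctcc
MT2A, chr16:56608334-56608583, plus strand: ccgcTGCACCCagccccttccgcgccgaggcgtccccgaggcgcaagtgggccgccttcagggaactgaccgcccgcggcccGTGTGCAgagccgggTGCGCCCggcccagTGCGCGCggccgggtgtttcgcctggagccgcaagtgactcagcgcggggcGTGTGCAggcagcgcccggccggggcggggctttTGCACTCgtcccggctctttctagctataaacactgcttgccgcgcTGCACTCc
SLC30A1, chr1:211579162-211579411, minus strand: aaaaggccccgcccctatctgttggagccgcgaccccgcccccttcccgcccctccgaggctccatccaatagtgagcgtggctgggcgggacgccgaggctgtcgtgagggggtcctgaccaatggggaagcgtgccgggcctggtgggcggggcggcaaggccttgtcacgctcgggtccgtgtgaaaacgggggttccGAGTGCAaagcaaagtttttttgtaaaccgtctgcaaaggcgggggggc
HSPA6, chr1:161524290-161524539, plus strand, with 1 heat shock element: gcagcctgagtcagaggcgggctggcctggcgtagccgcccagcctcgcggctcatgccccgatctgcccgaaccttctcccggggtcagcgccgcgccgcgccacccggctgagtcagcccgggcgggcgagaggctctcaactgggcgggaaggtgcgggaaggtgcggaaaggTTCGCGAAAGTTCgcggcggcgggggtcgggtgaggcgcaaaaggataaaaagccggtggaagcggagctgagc
CHAC1, chr15:40953221-40953470, plus strand, with 1 amino acid response element: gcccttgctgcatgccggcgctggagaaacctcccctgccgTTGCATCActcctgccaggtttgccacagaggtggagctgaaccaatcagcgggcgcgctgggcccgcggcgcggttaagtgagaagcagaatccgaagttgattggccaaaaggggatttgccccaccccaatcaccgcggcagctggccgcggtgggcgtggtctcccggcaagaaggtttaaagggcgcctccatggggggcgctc

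Metal response elements of this form were in 24.7% of all 27305 RefSeq promoter windows of this length and in 32.2% of those of 12084 tested genes, so a match is common. The share was 32.9% in genes called higher with thiram, 34.3% in genes called lower and 31.4% in genes not called. In genes called higher by log2 2 or more it was 28.3%. All 3 tested metallothionein genes with a RefSeq window held a match, MT2A included. The stricter heat shock element was in 0.439% of all windows and in 3 of 23 for the HSP70, HSP40, HSP90 and HSP110 genes. The windows of HSPA1A, HSPA1B, DNAJB1, HSPH1 and BAG3 held 0. The amino acid response element was in 0.82% of all windows and in 0 of 29 for the ATF4 targets tested. CHAC1, which holds one, was listed under glutathione.

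Across 21307 genes tested, 5516 (25.9%) differed between thiram and the controls at an adjusted p under 0.05, 2927 higher and 2589 lower with thiram (edgeR quasi-likelihood test, Benjamini-Hochberg adjustment). The median log2 fold change over all genes was -0.11. It was 0.0 with the 4274 genes at 0 in 1 group or both set to a bound, with 3 counts over the group as the floor. Of the calls 53.1% were higher, and 60.8% under another scaling of the libraries (RLE), with 3306 higher and 2134 lower. In bulk libraries a lower level can mean fewer cells of a type or less RNA per cell, and these cannot be told apart. In 1716 genes (8.05%) all 4 thiram libraries lay outside the range of the 15 controls, 981 above it (4.6%) and 735 below (3.45%). Called alone, the lower-numbered set gave 3452 genes (16.2%), with 8.8% higher and 7.41% lower. The higher-numbered set gave 3450 (16.2%), with 8.38% higher and 7.81% lower. Each of these rests on 2 thiram libraries, and the first count was 2208 without replicate 1 and 1771 without replicate 2, the second 1598 without replicate 3. With the libraries of the lower-numbered set thinned to 5.70 M counts and fitted alone, the first count was 5644. With the thiram and control libraries of both sets thinned to 2.31 M counts and fitted together, the second was 4381. Both fits also left out the rest of the plate, and the part of thinning alone was not tested. The sets shared 2000 called genes, 57.9% of the first list and 57.97% of the second, and 1995 of these had the same direction in both. The gene lists below are read against the shares of all genes called higher (13.7%) and lower (12.2%). All genes include many with low counts, which are seldom called, while the lists hold mostly protein-coding genes. Of 10131 protein-coding genes with a mean log2 CPM of 2 or more, 20.1% were higher and 24.0% lower. A list near these second shares does not stand apart from such genes.

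**Figure D1:**
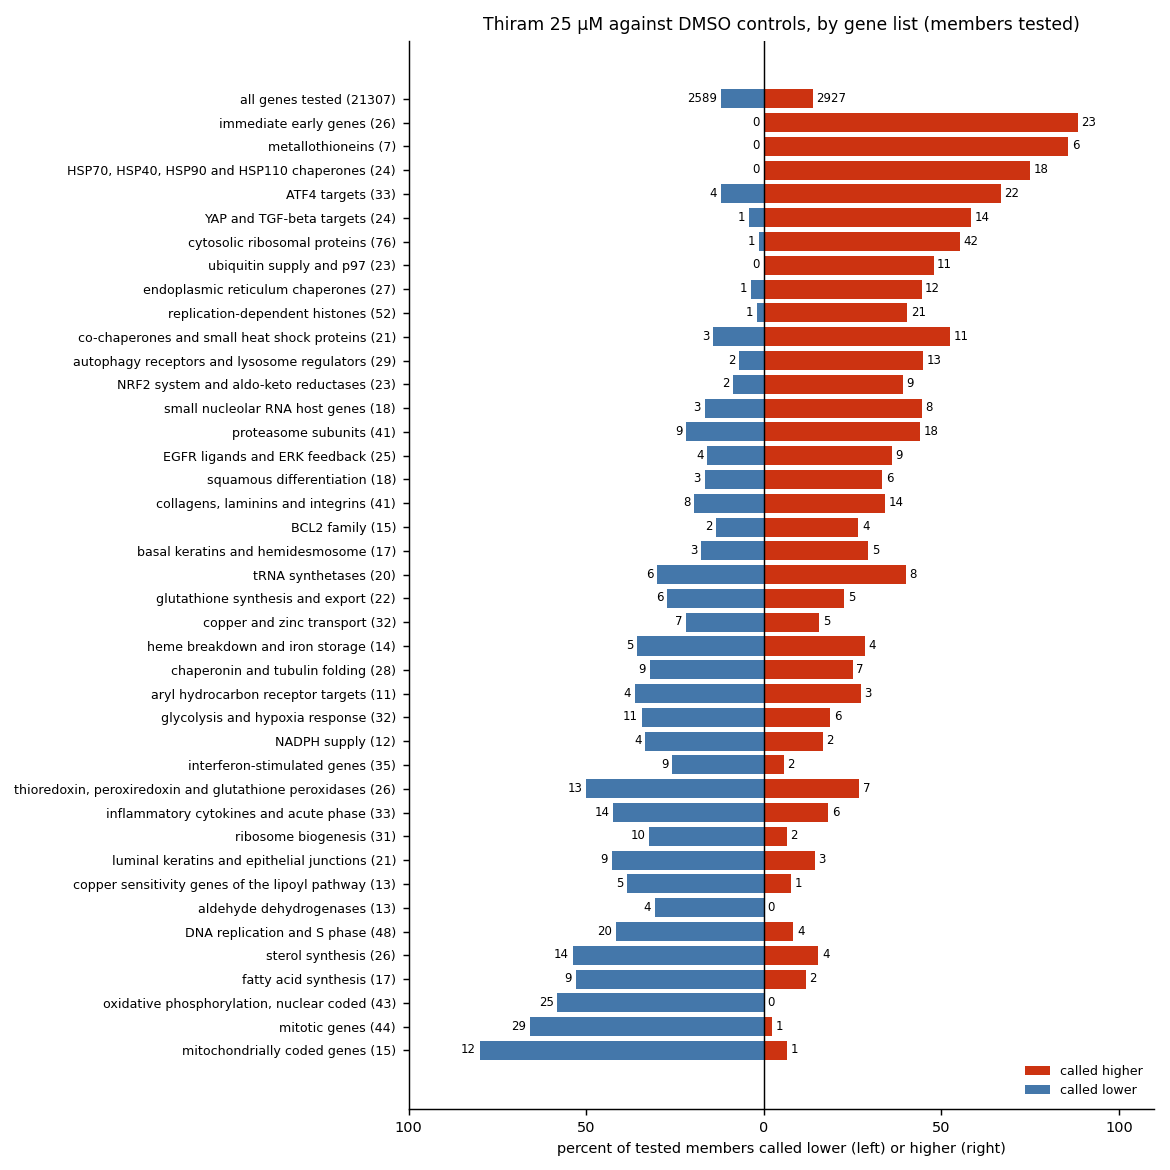
Percent of the tested members of each gene list described here that were called lower (blue, left) or higher (red, right) with thiram at 25 µM against the 15 DMSO controls, with the counts at the bar ends and the number tested in brackets. Immediate early genes (23 of 26 higher) and metallothioneins (6 of 7 higher) stand at the top, and mitochondrially coded genes (12 of 15 lower) and mitotic genes (29 of 44 lower) at the bottom, beside 2927 higher and 2589 lower of all 21307 genes.

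Genes of metal handling changed by some of the largest folds in the comparison, and the change was uneven among them. Of 7 metallothioneins tested, which are small cysteine-rich proteins that bind zinc, copper and cadmium, 6 were higher and 0 lower, with a median log2 fold change of 3.37. MT1X stood at 889.8, 1138, 1554 and 1231 CPM in thiram replicates 1 to 4, and its controls were at 54.9 to 156 CPM (median 110.3). Every thiram value was above every control, for a log2 fold change of 3.37 ± 0.15 (SE, adjusted p = 4.44e-40), with 2.94 in the lower-numbered and 4.19 in the higher-numbered set. MT1F stood at 191, 205, 485 and 213 CPM, with controls of 0.303 to 19.3 CPM (median 14.4), and replicate 3 was the highest of its 4 thiram libraries. Its log2 fold change was 4.26 ± 0.19 (SE, adjusted p = 1.30e-38). MT1B had 0 counts in the 15 controls together and 2504 in the 4 thiram libraries, at least 7306-fold higher with 3 counts over the control group as the floor. MT1G (log2 fold change 4.91 ± 0.43), MT1E (1.51 ± 0.12) and MT1L (1.1 ± 0.19) were also higher. MT2A, whose window held the most letter matches to the metal response element of those printed, was the exception. Its thiram values were 12859, 13362, 15083 and 14847 CPM and its controls were at 9045 to 15770 CPM (median 13168), so the groups overlapped, and its log2 fold change was 0.09 ± 0.14 (SE, adjusted p = 0.721). Metallothionein genes are close copies of each other and the counting settings are not given, so the split of reads among them is uncertain.

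SLC30A1, which exports zinc from the cytosol, showed the largest change among the called genes of copper and zinc transport. Its levels were 957, 1205, 924 and 835 CPM with thiram against controls of 20.2 to 59.7 CPM (median 28.3), with no overlap, and its log2 fold change was 5.13 ± 0.12 (SE, adjusted p = 1.30e-64), 5.39 in the lower-numbered and 4.56 in the higher-numbered set. In the same list 5 genes were higher and 7 lower of 32. Neither share was above the 20.1% and 24.0% of protein-coding genes with a mean log2 CPM of 2 or more. Higher calls numbered 3 without replicate 1 or without replicate 3, and lower calls 4 without replicate 3. The zinc and manganese importer SLC39A8 fell, from a control median of 295.2 CPM to 71.7, 66.6, 59.3 and 35.6 CPM, a log2 fold change of -2.12 ± 0.27 (SE, adjusted p = 2.62e-10). SLC30A9 (log2 fold change -0.75 ± 0.15) was lower and COX17, which hands copper to cytochrome c oxidase, was higher (0.76 ± 0.17), although its replicate 2 lay within the control range. The copper importer SLC31A1 had a log2 fold change of 0.32 ± 0.15 (SE, adjusted p = 0.115) and the copper pump ATP7A one of 0.83 ± 0.43 (SE, adjusted p = 0.164), and neither passed the test. Of 13 genes tied to copper sensitivity through protein lipoylation, 1 was higher and 5 were lower, among them DLAT (-0.75 ± 0.13) and PDHA1 (-0.54 ± 0.11), subunits of the pyruvate dehydrogenase complex. The ferredoxin FDX1 of that list stood at -0.32 ± 0.13 (adjusted p = 0.0544).

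**Figure D2:**
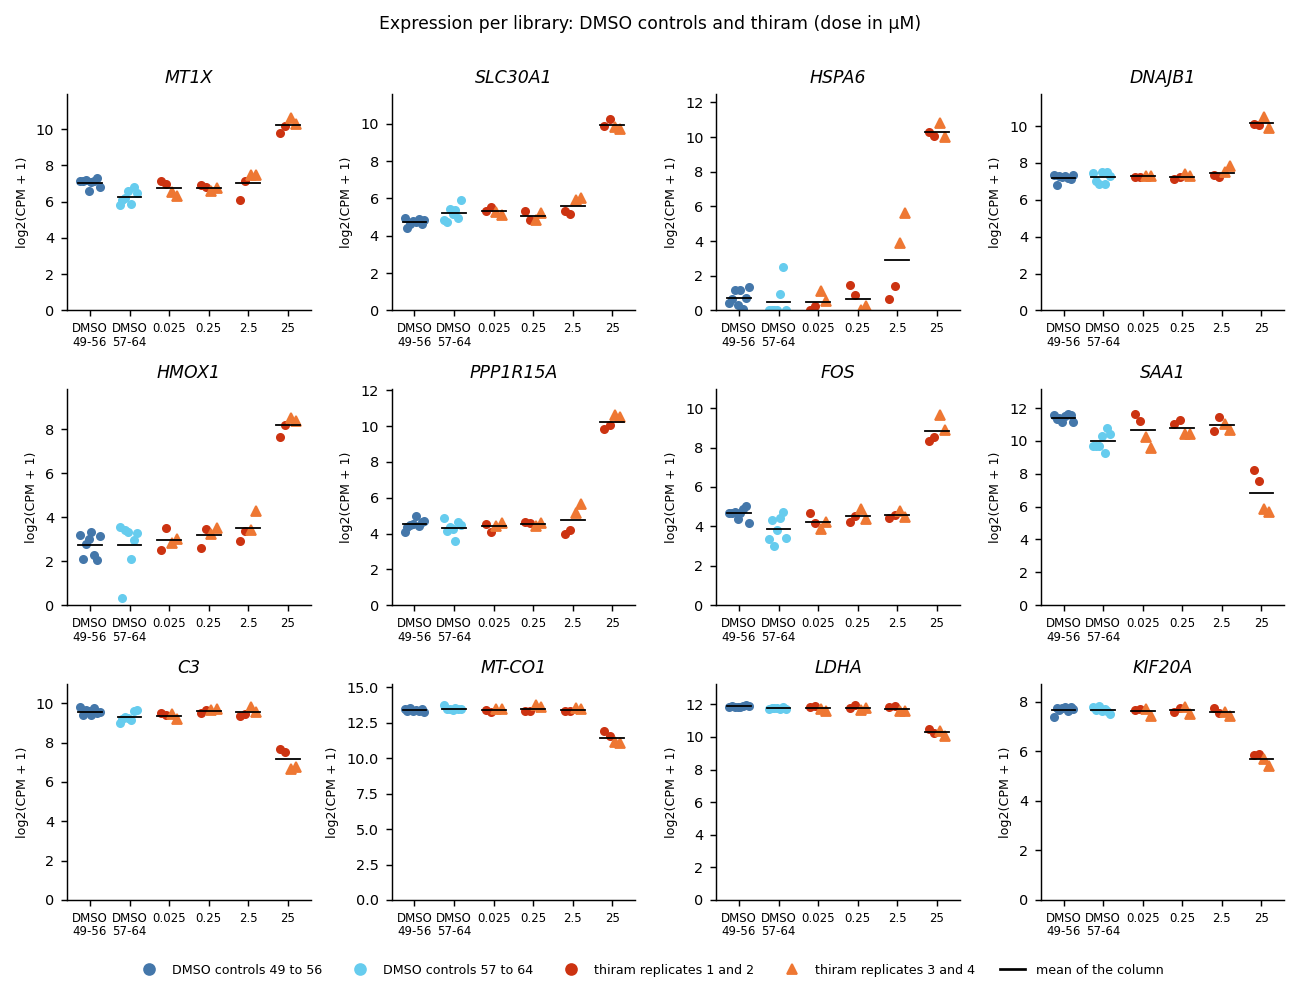
Expression of 12 genes in each library, as log2(CPM + 1), for the DMSO controls of each set and the 4 thiram doses in µM, with a line at the mean of each column. The 25 µM libraries of MT1X, SLC30A1, HSPA6, DNAJB1, HMOX1, PPP1R15A and FOS all lie above every control, and those of SAA1, C3, MT-CO1, LDHA and KIF20A all lie below, while the 3 lower doses lie near the controls, apart from 2 of the 4 libraries at 2.5 µM for HSPA6.

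Heat shock genes were called in 1 direction. Of 24 tested HSP70, HSP40, HSP90 and HSP110 chaperones, 18 were higher and 0 lower, with a median log2 fold change of 0.86 against -0.11 for all genes, and medians of 0.87 and 0.86 in the lower- and higher-numbered sets. HSPA6, a strictly inducible HSP70, stood at 1274, 1062, 1773 and 1040.4 CPM against controls of 0 to 4.76 CPM (median 0.334). Its log2 fold change was 10.79 ± 0.23 (SE, adjusted p = 1.42e-88), 10.59 in the lower-numbered and 11.26 in the higher-numbered set. DNAJB1, the HSP40 that serves the inducible HSP70s, stood at 1102, 1082, 1421 and 958 CPM against controls of 112 to 184 CPM (median 153), a log2 fold change of 2.95 ± 0.09 (SE, adjusted p = 2.33e-52). HSPA1A (4.15 ± 0.14) and HSPA1B (4.67 ± 0.20), nearly identical HSP70 genes whose reads may be shared, and the HSP110 gene HSPH1 (2.54 ± 0.11) also rose.

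Among 21 co-chaperones and small heat shock proteins, 11 were higher and 3 lower. CRYAB, the small heat shock protein alpha B-crystallin, stood at 88.4, 137, 83.9 and 113 CPM against controls of 0 to 6.05 CPM (median 0), a log2 fold change of 8.63 ± 0.39 (SE, adjusted p = 4.31e-47). BAG3, which couples HSP70 to selective autophagy, went from a control median of 123.8 CPM to 746, 752, 629.5 and 426 CPM (log2 fold change 2.36 ± 0.09). The members that were lower include FKBP5, a partner of HSP90 in steroid receptor complexes (-1.68 ± 0.17), and the ubiquitin ligase STUB1 (-0.57 ± 0.12). The chaperonin and tubulin folding list was divided, with 7 higher and 9 lower of 28. TCP1 (0.61 ± 0.08) and the tubulin TUBB2A (1.62 ± 0.24) were higher, and CCT3 (-0.40 ± 0.05) and TUBA1B (-1.17 ± 0.15) lower.

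Genes of protein degradation were called in both directions. Of 41 proteasome subunits and regulators, 18 were higher and 9 lower, with a median log2 fold change of 0.09. The regulatory subunits PSMD2 (0.66 ± 0.07) and ADRM1 (0.92 ± 0.09) were higher in all 4 libraries than in any control. PSME1 (-0.98 ± 0.12) and PSME2 (-0.99 ± 0.12), the subunits of the interferon-inducible activator, were lower in all 4. Of 23 genes of ubiquitin supply and p97, 11 were higher and 0 lower, and 7 were higher when replicate 3 was left out. ZFAND2A, which binds the proteasome under arsenite, stood at 78.9, 84.5, 165 and 134 CPM against controls of 3.54 to 12.4 CPM (median 8.15) (log2 fold change 3.74 ± 0.20). ZFAND5 (1.5 ± 0.11) rose as well, while VCP, the p97 ATPase itself, had a log2 fold change of 0.15 ± 0.06 (SE, adjusted p = 0.0634). In the autophagy and lysosome list 13 of 29 were higher and 2 lower. The receptor SQSTM1 stood at 1528, 1865, 1819 and 1408 CPM against controls of 348 to 562 CPM (median 449) (log2 fold change 1.87 ± 0.13), and the LC3 family members GABARAPL1 (2.29 ± 0.15) and MAP1LC3B (1.76 ± 0.09) were higher too. The lysosomal protease CTSD was lower (-0.82 ± 0.16), and 1 gene was lower without replicate 4.

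HMOX1, which breaks down heme, rose to 202, 293, 369.6 and 329 CPM from controls of 0.236 to 10.7 CPM (median 6.97), a log2 fold change of 5.57 ± 0.24 (SE, adjusted p = 8.67e-40), 5.34 in the lower-numbered and 5.68 in the higher-numbered set. Of 23 genes of the NRF2 system and the aldo-keto reductases, 9 were higher and 2 lower, including OSGIN1 (3.75 ± 0.32) and the NRF2 partner MAFG (2.34 ± 0.15) among those higher. GCLM, the modifier subunit of the enzyme that limits glutathione synthesis, stood at 366, 388, 583 and 518 CPM against controls of 79.5 to 143 CPM (median 107) (log2 fold change 2.08 ± 0.14). The cystine carrier SLC7A11 had 145, 179, 189 and 160.2 CPM against controls of 9.75 to 35.3 CPM (median 16.6) (log2 fold change 3.33 ± 0.26). CHAC1, which degrades glutathione and is also an ATF4 target, had the largest fold in the glutathione list, 70.1, 126, 146 and 91.5 CPM against controls of 0 to 3.78 CPM (median 1.65) (log2 fold change 5.94 ± 0.25). The whole glutathione list gave 5 higher and 6 lower of 22, and the lower count was 3 under another scaling of the libraries or with controls 57 to 64 only, and 2 without replicate 3. The catalytic subunit GCLC, at -0.52 ± 0.15, lost its call without replicate 3 (adjusted p = 0.10). GSTP1, an abundant glutathione transferase, was lower (-0.36 ± 0.08).

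In the thioredoxin, peroxiredoxin and glutathione peroxidase list more genes were lower (13) than higher (7) of 26, with a median of -0.38. Thioredoxin reductase TXNRD1 stood at 563, 689, 723 and 578 CPM against controls of 224 to 347 CPM (median 269.6) and rose (1.24 ± 0.13), as did SESN2 (3.19 ± 0.14), a sestrin of the stress response, and TXNL1 (0.95 ± 0.10). PRDX6 (-0.46 ± 0.06) and the thioredoxin inhibitor TXNIP (-1.87 ± 0.25) were lower in all 4 libraries than in any control. Of 12 genes of NADPH supply, 2 were higher and 4 lower, but higher calls numbered 1 without replicate 1 or without replicate 4, and lower calls 2 without replicate 2 and 1 without replicate 3. Malic enzyme ME1 was higher at 0.82 ± 0.13. In the heme and iron list of 14, 4 were higher and 5 lower. Ferritin light chain FTL stood at 6895, 6929.9, 8261 and 5421 CPM against controls of 1423 to 2135 CPM (median 1869.8) (1.92 ± 0.13), and the transferrin receptor TFRC (-1.0 ± 0.13) and the iron importer SLC11A2 (-1.29 ± 0.24) fell. Aldehyde dehydrogenases had 0 higher and 4 lower of 13 (30.8%). Of protein-coding genes with a mean log2 CPM of 2 or more, 24.0% were lower, so the lower share of this small list was not far from theirs. ALDH1B1 stood at 19.4, 18.3, 20.7 and 7.86 CPM against controls of 55.1 to 87.6 CPM (median 71.4) (log2 fold change -1.91 ± 0.20), ALDH7A1 was at -1.04 ± 0.12, and ALDH1A3 did not pass the test (-0.34 ± 0.42, adjusted p = 0.638).

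ATF4 targets were mostly higher, 22 of 33 with 4 lower and a median of 0.93, and the sets gave medians of 1.01 and 1.12. PPP1R15A, which directs the phosphatase that restarts translation, stood at 900.2, 1068, 1566 and 1431 CPM against controls of 10.9 to 30.2 CPM (median 20.8), a log2 fold change of 5.84 ± 0.13 (SE, adjusted p = 1.01e-66). ATF3 stood at 96.9, 149.99, 353 and 294 CPM against controls of 0 to 1.54 CPM (median 0) (log2 fold change 9.84 ± 0.34). DDIT3, which codes for CHOP, a factor tied to cell death under stress, stood at 56.1, 88.3, 211 and 163 CPM against controls of 0 to 12.2 CPM (median 6.38) (4.13 ± 0.24 (SE, adjusted p = 2.31e-30)). All 4 thiram values of these genes lay above all controls, and for each gene the pair from replicates 3 and 4 was the higher pair. ASNS, asparagine synthetase, was at 12.2, 21.8, 12.4 and 7.45 CPM against controls of 0 to 9.95 CPM (median 0), so the groups overlapped, with a log2 fold change of 5.59 ± 0.63 (SE, adjusted p = 6.56e-14). Lower ATF4 targets included DDIT4, an inhibitor of mTORC1, at 281, 221, 237 and 129.9 CPM against controls of 592 to 1076 CPM (median 910.4) (-1.96 ± 0.19), and the amino acid carrier SLC38A2 (-0.65 ± 0.13). Of 20 tRNA synthetases, many of them ATF4 targets, 8 were higher, led by GARS1 (1.32 ± 0.09) and CARS1 (1.29 ± 0.12), and 6 lower, led by QARS1 (-0.63 ± 0.10) and FARSA (-0.79 ± 0.13).

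Chaperones of the endoplasmic reticulum gave 12 higher and 1 lower of 27, with a median of 0.33. HSPA5, the HSP70 of this compartment, stood at 1451, 2003, 1524 and 1333 CPM against controls of 529 to 699.6 CPM (median 572) (log2 fold change 1.46 ± 0.07 (SE, adjusted p = 8.43e-37)). HERPUD1, which acts in the removal of misfolded proteins from it, had 377, 538, 447 and 328 CPM against controls of 24.2 to 62.7 CPM (median 47.6) (3.17 ± 0.11). The disulfide isomerase PDIA4 was the lower one (-0.64 ± 0.11), and 2 were lower without replicate 1 or without replicate 2.

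Immediate early genes, whose transcription answers growth factors and stress kinases without new protein, had the highest share called in 1 direction, 23 of 26 higher and 0 lower, with a median of 2.41, at 48 h after dosing. ARC was at 1001, 1035, 1081 and 511 CPM, while its 15 controls held 8 counts in all and were at 0 to 0.255 CPM (median 0). Its log2 fold change was 13.98 ± 0.28 (SE, adjusted p = 1.27e-56), and replicate 4 was the lowest of the thiram libraries. FOS stood at 321, 369, 796 and 473 CPM against controls of 6.91 to 32.01 CPM (median 20.3) (4.44 ± 0.19 (SE, adjusted p = 1.16e-40)), with 3.82 in the lower-numbered and 5.53 in the higher-numbered set. JUN (237, 289.97, 652 and 617 CPM, controls of 5.15 to 28.2 CPM, median 17.04) and EGR1 (556, 724, 1239 and 664 CPM, controls of 44.4 to 92.1 CPM, median 74.01) behaved alike, with log2 fold changes of 4.59 ± 0.18 and 3.51 ± 0.16 and their highest values in replicate 3. The stress sensors GADD45B (4.12 ± 0.11), GADD45A (4.33 ± 0.17) and GADD45G (9.19 ± 0.25) rose, the last to 393, 422, 741 and 646 CPM from controls of 0 to 3.74 CPM (median 0.165). NR4A3, a nuclear receptor, had 1 count over all controls and 169 with thiram, a depth-scaled ratio of 1479 with an exact 95% interval from 262 to 58770.

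RGS16, which shortens G-protein signals, stood at 496, 402, 616 and 406 CPM against controls of 0 to 4.66 CPM (median 1.33) (log2 fold change 8.11 ± 0.19 (SE, adjusted p = 6.70e-74)). RASD1, a Ras-like GTPase, stood at 469, 491, 425 and 403 CPM against controls of 0 to 1.77 CPM (median 0) (10.45 ± 0.28). Of 25 EGFR ligands and ERK feedback genes, 9 were higher and 4 lower, with a median log2 fold change of 0.01. The ligand HBEGF stood at 86.1, 102, 222 and 167 CPM against controls of 0 to 20.8 CPM (median 3.22) (5.24 ± 0.27), and the phosphatase DUSP2 was at 4.59 ± 0.22, while DUSP1 (-0.70 ± 0.14) and SPRY2 (-1.0 ± 0.24), an inhibitor of receptor signalling, fell. Targets of YAP and TGF-beta gave 14 higher and 1 lower of 24, with a median of 0.61. CCN2, a matricellular protein and standard YAP target, stood at 659.7, 872, 788 and 792 CPM against controls of 35.3 to 79.9 CPM (median 59.2) (3.7 ± 0.18 (SE, adjusted p = 3.14e-35)), and the ligand TGFB2 was the lower member (-1.44 ± 0.32), with 2 lower members without replicate 1 or without replicate 2. CLU, a secreted chaperone, was at 777, 955, 1241 and 1055 CPM against controls of 1.06 to 31.8 CPM (median 26.96) (5.25 ± 0.16).

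CDKN1A, the cyclin-dependent kinase inhibitor p21, stood at 692, 597, 444 and 349.7 CPM against controls of 209 to 287 CPM (median 221) (1.2 ± 0.12 (SE, adjusted p = 7.23e-15)), and the pro-apoptotic PMAIP1 at 153, 135, 250.1 and 274 CPM against controls of 6.03 to 33.3 CPM (median 17.3) (3.61 ± 0.19). In the BCL2 family 4 of 15 were higher and 2 lower (1 lower without replicate 1), beside 13.7% and 12.2% of all genes. Of protein-coding genes with a mean log2 CPM of 2 or more, 20.1% were higher and 24.0% lower. The killer protein gene BCL2L11 stood at 24.1, 39.7, 60.3 and 65.4 CPM against controls of 0 to 13.7 CPM (median 5.24) (2.7 ± 0.28), the survival gene BCL2L2 was higher (1.32 ± 0.24) and BID lower (-0.90 ± 0.16).

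Inflammatory and acute phase genes fell more often than they rose, 14 lower and 6 higher of 33. Their median log2 fold change was -0.91, or -0.38 with genes at 0 in 1 group set to their bound, and 9 were lower against controls 57 to 64 only. SAA1, serum amyloid A, had 300.02, 190.4, 57.9 and 50.1 CPM against controls of 619 to 3209 CPM (median 2235). The controls of its lower-numbered set averaged above those of the higher-numbered set, as the plot of expression by library shows, and all thiram values lay below both. Its log2 fold change was -3.62 ± 0.42 (SE, adjusted p = 3.32e-12), -3.48 in the lower-numbered and -4.25 in the higher-numbered set. The complement gene C3 stood at 206, 185, 99.4 and 107 CPM against controls of 510.3 to 879 CPM (median 728) (-2.2 ± 0.14 (SE, adjusted p = 5.19e-26)), SAA2 was at -5.21 ± 0.87, and the calgranulins S100A8 (-5.81 ± 1.09) and S100A9 (-5.96 ± 0.97) were among the largest falls. NFKBIA, the inhibitor and target of NF-kappaB, fell to 156, 143, 45.9 and 33.5 CPM from controls of 362 to 631 CPM (median 544) (-2.33 ± 0.16). IL6 had 591 counts over the controls and 0 with thiram, at least 22.5-fold lower.

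Some secreted signals went the other way. The neutrophil attractant CXCL8 rose to 299, 307, 552 and 392 CPM from controls of 18.7 to 65.5 CPM (median 54.01) (2.86 ± 0.23 (SE, adjusted p = 2.53e-20)), and IL24 was at 5.63 ± 0.62. CSF2, a growth factor of myeloid cells, had 0 counts in the controls and 221 with thiram, at least 645-fold higher. Interferon-stimulated genes gave 2 higher and 9 lower of 35, or 1 higher without replicate 1. The lower share was close to the 24.0% of protein-coding genes with a mean log2 CPM of 2 or more. The antiviral membrane proteins IFITM3 (193, 232, 127 and 259.9 CPM, controls of 588 to 990.1 CPM, median 713) and IFITM2 had log2 fold changes of -1.96 ± 0.15 and -2.02 ± 0.16. IRF7, a factor that amplifies interferon production, was higher (1.97 ± 0.25). OAS1, an antiviral sensor, had 781 counts over the controls and 0 with thiram, at least 29.7-fold lower.

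Transcripts of the respiratory chain were lower from both genomes. Of 43 nuclear-coded genes of oxidative phosphorylation, 0 were higher and 25 lower, with a median of -0.44 and medians of -0.33 and -0.49 in the sets. ATP5F1A, a subunit of ATP synthase, stood at 513, 493, 357 and 417 CPM against controls of 697 to 769 CPM (median 727) (-0.71 ± 0.07), and CYC1, cytochrome c1, at -0.85 ± 0.08. Of 15 genes coded in the mitochondrial genome, 12 were lower and 1 higher, with a median of -0.99. MT-CO1, the catalytic subunit of cytochrome c oxidase, had 3928, 3053, 2264 and 2108 CPM against controls of 9578 to 13521 CPM (median 11225), a log2 fold change of -1.96 ± 0.09 (SE, adjusted p = 5.64e-38), and -1.61 in the lower-numbered and -2.41 in the higher-numbered set. MT-ND5 of complex I fell alike in both sets, to 1972, 1599.9, 1551 and 1799.7 CPM from controls of 4016 to 4871 CPM (median 4363) (-1.34 ± 0.06 (SE, adjusted p = 8.05e-40)). The ribosomal RNA MT-RNR2 did not follow the messenger RNAs. It stood at 30400, 25054, 91221 and 85626 CPM against controls of 29925 to 54657 CPM (median 38855), below the controls' median in replicates 1 and 2 and above every control in replicates 3 and 4. Its pooled log2 fold change, 0.54 ± 0.18 (SE, adjusted p = 0.0159), lost its call without replicate 3 (0.21) or replicate 4 (0.26). With ribosomal RNA included, mitochondrially coded reads made up 5.43%, 4.56%, 10.7% and 10.4% of counts in thiram replicates 1 to 4, against 7.50% to 8.65% and 9.10% to 10.2% in the controls of the sets.

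Glycolysis and hypoxia genes were divided, 6 higher and 11 lower of 32. LDHA, lactate dehydrogenase A, stood at 1453, 1235, 1307 and 1083 CPM against controls of 3358 to 3984 CPM (median 3621) (-1.51 ± 0.07 (SE, adjusted p = 4.73e-36)), with -1.48 in the lower-numbered and -1.53 in the higher-numbered set. ENO1, enolase, was lower as well (-0.86 ± 0.05). ADM, adrenomedullin, a hypoxia-responsive peptide, rose to 269.5, 228, 361 and 351 CPM from controls of 5.09 to 28.02 CPM (median 22.4) (3.69 ± 0.15), and PFKFB3, which makes the activator of phosphofructokinase, was higher (1.88 ± 0.17).

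Lipid synthesis was lower in most called genes. Of 26 sterol synthesis genes, 14 were lower and 4 higher. Their median was -0.53, or -0.44 with genes at 0 in 1 group set to their bound. In this list 7 were lower without replicate 3, and 2 higher without replicate 1 or without replicate 3. EBP, a sterol isomerase, stood at 102, 92.4, 57.5 and 55.9 CPM against controls of 133 to 207 CPM (median 172) (-1.1 ± 0.13). INSIG1 (1.24 ± 0.15), which restrains the pathway, and the isomerase IDI1 (0.67 ± 0.09) were higher, and HMGCS1 did not pass the test (0.26 ± 0.14, adjusted p = 0.189). Of 17 fatty acid genes, 9 were lower and 2 higher. ACSL1, which activates long-chain fatty acids, stood at 83.6, 85.9, 66.2 and 45.9 CPM against controls of 229 to 451 CPM (median 372) (-2.3 ± 0.30), ELOVL6 was at -1.5 ± 0.17, and ACSL3 was higher (0.52 ± 0.10).

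Mitotic genes fell, 29 of 44 with 1 higher and a median of -0.61. KIF20A, a kinesin of cytokinesis, stood at 56.6, 58.3, 50.2 and 41.4 CPM against controls of 166 to 223 CPM (median 206) (-1.95 ± 0.16 (SE, adjusted p = 2.34e-20)), and the kinase PLK1 was at -1.04 ± 0.11. The higher member was NEK2, a centrosome kinase (1.08 ± 0.15). Genes of DNA replication gave 20 lower and 4 higher of 48, the last count being 2 without replicate 1 or 4 and 1 without replicate 3. MCM3 of the replicative helicase stood at 80.2, 86.9, 87.8 and 47.6 CPM against controls of 171 to 257 CPM (median 205) (-1.44 ± 0.13 (SE, adjusted p = 8.68e-18)). The proliferation marker MKI67 had 114, 137, 233 and 379 CPM against controls of 196 to 267 CPM (median 219.96). Replicates 1 and 2 lay below the controls, replicate 4 above them and replicate 3 within, and the log2 fold change was -0.12 ± 0.13 (SE, adjusted p = 0.593), slightly above 0 under DESeq2 or without replicate 1 or 2. PCNA stood at -0.37 ± 0.19 (adjusted p = 0.168).

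Histone genes whose messages normally lack a poly(A) tail went against the other cell cycle genes, with 21 of 52 higher and 1 lower, and a median of 1.18. H3C10 stood at 14.2, 43.9, 59.9 and 37.2 CPM against controls of 0 to 5.19 CPM (median 2.52) (3.75 ± 0.34 (SE, adjusted p = 9.86e-18)), and H2BC18 at 8.97, 12.1, 41.5 and 36.8 CPM against controls of 0 to 2.004 CPM (median 0.242) (5.39 ± 0.51). The member that fell, H4C3, was at 261, 175, 113 and 170.5 CPM against controls of 212 to 474 CPM (median 329) (-0.99 ± 0.18). Histone genes share sequence, which makes their single values uncertain.

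Cytosolic ribosomal protein genes gave 42 higher and 1 lower (2 without replicate 1) of 76, with a median of 0.27, but the sets differed in number. The lower-numbered set called 11 higher and the higher-numbered set 52, with medians of 0.07 and 0.48. The test of the difference between sets called 17 of the 76. Without replicate 4 the pooled count was 22, and without the shallow libraries 18. RPS6 stood at 2926, 2734, 2956 and 3221 CPM against controls of 2031 to 2445 CPM (median 2184) (0.40 ± 0.05), higher in all 4 libraries. Of 31 genes of ribosome biogenesis, 10 were lower, among them NOLC1 (-0.95 ± 0.09) and DKC1 (-0.81 ± 0.10), and 2 were higher, or 1 without replicate 1 or 2 and 0 without replicate 3. Of 18 host genes of small nucleolar RNAs, 8 were higher and 3 lower. GAS5 stood at 1085, 1062, 1243 and 1192 CPM against controls of 437 to 661 CPM (median 546) (1.04 ± 0.08) and SNHG7 at 1.26 ± 0.09, while DANCR (-0.75 ± 0.12) and SNHG16 (-0.82 ± 0.15) were lower.

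Genes of epithelial identity and matrix changed in both directions. In the list of basal keratins and hemidesmosomes 5 of 17 were higher and 3 lower, or 1 lower without replicate 3. KRT5 fell to 651, 519, 333 and 355 CPM from controls of 1024 to 1439 CPM (median 1209) (-1.37 ± 0.15 (SE, adjusted p = 2.97e-13)), and its partner KRT14 stood at 63.3, 55.1, 92.7 and 161 CPM against controls of 8.24 to 56.4 CPM (median 16.9) (2.23 ± 0.42 (SE, adjusted p = 7.45e-06)). The laminin chain gene LAMB3 rose to 1746, 1791, 1332 and 1049 CPM from controls of 358 to 646 CPM (median 484) (1.55 ± 0.17). Luminal keratins and junction genes gave 9 lower and 3 higher of 21 (1 higher without replicate 3). KRT18 stood at 296, 336, 189 and 170.5 CPM against controls of 404 to 577 CPM (median 505) (-1.0 ± 0.09), and the junction scaffold TJP1 was higher (1.12 ± 0.16). In the squamous list 6 of 18 were higher and 3 lower, or 1 lower without any single thiram replicate. SERPINB2, an inhibitor of plasminogen activators, stood at 45.003, 32.8, 119 and 16.1 CPM against controls of 0 to 4.24 CPM (median 0.0668) (7.04 ± 0.59), and the factor GRHL1 was at 3.99 ± 0.49. Of 41 collagens, laminins, integrins and matrix genes, 14 were higher, with COL4A2 (1.34 ± 0.12) and the urokinase receptor PLAUR (1.78 ± 0.16) among them, and 8 lower (5 without replicate 3), with LAMA5 at -1.21 ± 0.17. Targets of the aryl hydrocarbon receptor gave 3 higher and 4 lower of 11, or 1 higher without replicate 1 or without replicate 2. CYP1B1, a monooxygenase of this pathway, fell to 57.6, 33.9, 23.6 and 7.04 CPM from controls of 166 to 339.9 CPM (median 301) (-3.05 ± 0.25 (SE, adjusted p = 8.39e-20)).

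By gene class, protein-coding genes were called in near equal numbers, 2503 higher and 2466 lower of 13856 with a RefSeq match. Among 1347 long non-coding RNAs 111 were higher and 53 lower, and among 1399 pseudogenes 84 were higher and 13 lower. The classes differ in depth, with a median average log2 CPM of 4.19 for protein-coding genes against -0.57 for long non-coding RNAs and -1.15 for pseudogenes, so their shares called cannot be set side by side.

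The comparison with thiram at 2.5 µM had no control library on either side, but the controls entered its filter, scaling and estimate of the spread. It called 4302 of 21307 genes (20.2%), 2177 higher (10.2%) and 2125 lower (9.97%) at 25 µM. Under another scaling 61.2% of its calls were higher in place of 50.6%. Fitted on the 2 groups alone, it called 3517 genes, 1906 higher and 1611 lower. HSPA6 averaged 15.9 ± 21.97 CPM (SD, n = 4) at 2.5 µM, 0.709 ± 0.813 at 0.25 µM and 0.457 ± 0.519 at 0.025 µM, and its log2 fold change between the highest doses was 6.48 ± 0.25 (SE, adjusted p = 2.03e-53). SLC30A1 averaged 49.5 ± 14.97 CPM at 2.5 µM and 32.7 ± 5.64 at 0.25 µM, with 4.34 ± 0.17 (SE, adjusted p = 1.52e-43) between the highest doses. HMOX1 averaged 11.1 ± 5.27 CPM at 2.5 µM and differed from 25 µM by 4.78 ± 0.32 (SE, adjusted p = 1.93e-25). PPP1R15A averaged 28.6 ± 15.7 CPM at 2.5 µM, with 5.49 ± 0.19 (SE, adjusted p = 6.16e-47) between the doses. MT-CO1 differed by -1.95 ± 0.10 (SE, adjusted p = 4.25e-33) and LDHA by -1.41 ± 0.08 (SE, adjusted p = 1.21e-28). Between the doses 6 of 7 metallothioneins, 17 of 24 chaperones and 23 of 26 immediate early genes were higher at 25 µM. Each of these lists had 0 lower. Of 33 ATF4 targets 21 were higher and 4 lower. Of 43 nuclear-coded respiratory genes 0 were higher and 23 lower, and of 44 mitotic genes 1 was higher and 29 lower. Both comparisons share the 25 µM libraries.

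The effect of thiram differed between the sets in 218 of 21307 genes (1.02%), 93 with a higher log2 fold change in the higher-numbered set (0.436%) and 125 with a lower one (0.587%). The count was 91 without replicate 1, 118 without replicate 3 and 124 without replicate 4. Among genes with a mean log2 CPM over the plate of 4 or more, 3752 were called in the pooled comparison and 3709 of these had the same sign in both sets. Immediate early genes held 5 of the 93 and 1 of the 125, metallothioneins 4 of the 93, and ribosomal proteins 17 of the 93. FOS differed by 1.71 ± 0.35 on the log2 scale (adjusted p = 0.00123), JUN by 1.65 ± 0.35 (adjusted p = 0.00186) and MT1X by 1.25 ± 0.22 (adjusted p = 8.90e-05), in each case a rise in both sets that was larger in the higher-numbered one. SLC30A1 rose more in the lower-numbered set, with a difference of -0.82 ± 0.23 (adjusted p = 0.0485).

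Other genes moved in 1 set and hardly in the other. CSF3, a granulocyte growth factor, stood at 668, 569.8, 52.4 and 62.5 CPM in the thiram libraries, with control means of 798 CPM in the lower-numbered and 511 CPM in the higher-numbered set, so replicates 3 and 4 fell and replicates 1 and 2 did not leave the range of the 15 controls. Its difference was -2.8 ± 0.30 (SE, adjusted p = 3.08e-12). ANGPTL4, an inhibitor of lipoprotein lipase, had 771, 711, 201 and 211 CPM (-1.63 ± 0.18 (SE, adjusted p = 3.08e-12)), and the hair keratin KRT81 11882, 9544, 5357 and 6146 CPM (-1.11 ± 0.09 (SE, adjusted p = 7.37e-19)), with the same division. Without replicate 3 the pooled log2 fold changes of CSF3, ANGPTL4 and KRT81 were -0.57, -0.25 and -0.25, and without replicate 4 they were -0.67, -0.31 and -0.29, and none of these passed the test. MTRNR2L12, a nuclear gene with near-identical sequence to MT-RNR2, stood at 145, 115, 662 and 829 CPM, and its log2 fold change was larger in the higher-numbered set by 2.34 ± 0.21, against a difference of 1.27 ± 0.10 for MT-RNR2. With the thiram and control libraries thinned to 2.31 M counts and fitted without the rest of the plate, 313 genes differed between the sets. Of these 122 were higher and 191 lower, and the differences were -1.13 for KRT81 and 2.40 for MTRNR2L12.

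**Figure D3:**
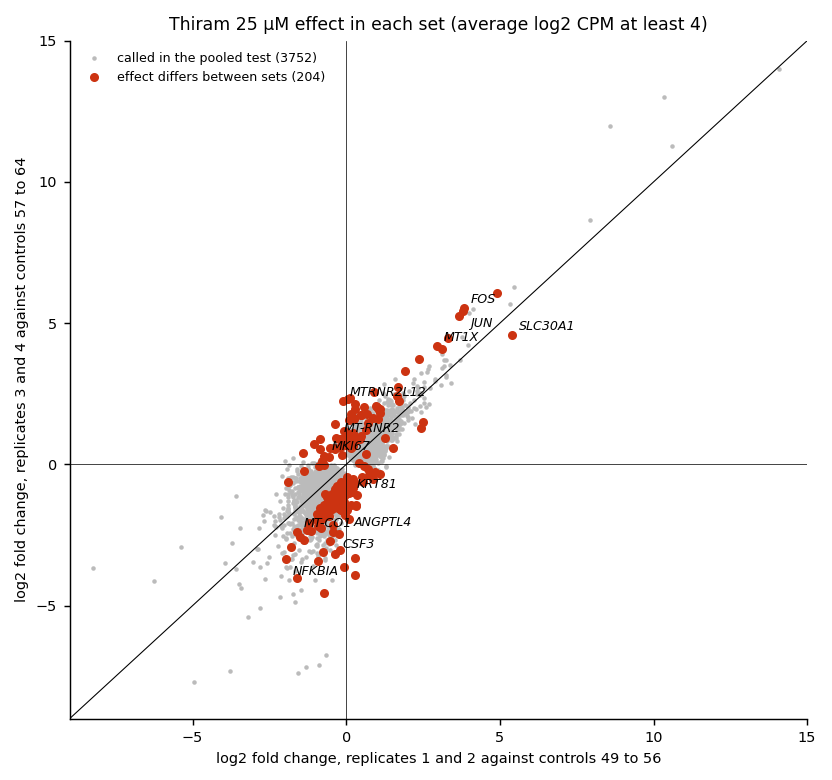
Log2 fold change of thiram at 25 µM in the lower-numbered set (horizontal) against the higher-numbered set (vertical) for genes with a mean log2 CPM over the plate of 4 or more, with the line of equality. Grey points are the 3752 genes called in the pooled comparison and red points the 204 genes whose effect differed between the sets. FOS, JUN and MT1X lie above the line, SLC30A1 below it, and CSF3 and ANGPTL4 lie low in the higher-numbered set alone.

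Arsenic, cadmium and copper at 25 µM were each compared with their own water controls, and the thiram effect was tested against each of these effects in 1 fit of 19835 genes. Plate and solvent differ between thiram and these chemicals and cannot be told apart from the chemical. Depth differed too, with totals of 7.27 to 12 M for arsenic, 1.43 to 1.45 M for cadmium, 12.2 to 21.9 M for copper and 1.93 to 23.9 M for the water controls. The thiram effect differed from that of arsenic in 3131 genes (15.8%), with 8.4% of all genes higher with thiram and 7.38% lower. It differed from that of cadmium in 915 (4.61%), 2.13% higher and 2.49% lower, and from that of copper in 3346 (16.9%), 7.52% higher and 9.35% lower. Of the copper differences 44.6% were higher with thiram, against 59.1% under another scaling and 56.9% without thiram replicate 4. Of the cadmium differences 46.1% were higher, against 37.8% under another scaling, 58.8% without thiram replicate 3 and 53.8% without replicate 4. The cadmium libraries, 2 and both shallow, stood apart: mitochondrially coded reads made up 39.3% and 46.8% of their counts, against 7.87% to 11.4% in the water controls and 5.25% to 7.68% with arsenic. Most of these were MT-RNR2, at 31.6% and 37.5% of counts in the cadmium libraries. Over the 18495 genes of this fit that were also tested in the thiram plate's fit, the median log2 fold change was -1.09 with cadmium and -0.01 with arsenic. The part of these shifts in the cadmium comparisons below was not tested. In this fit all 3 comparisons share the thiram libraries and their controls. Each SE was taken from its own test and is approximate. That of a difference can be smaller than that of an effect within it, as for SLC30A1 and RGS16 with cadmium below.

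SLC30A1 rose more with thiram than with each of the other chemicals. Its log2 fold change was 5.05 ± 0.12 with thiram, 2.55 ± 0.13 with arsenic, 1.27 ± 0.40 with cadmium and 0.14 ± 0.15 with copper, and the thiram effect was higher by 2.49 ± 0.20 (SE, adjusted p = 6.75e-16), 3.78 ± 0.34 (SE, adjusted p = 7.84e-14) and 4.91 ± 0.21 (SE, adjusted p = 2.61e-29). MT1X had 3.37 ± 0.23 with thiram, 2.6 ± 0.24 with arsenic, 3.9 ± 0.37 with cadmium and -0.77 ± 0.31 with copper. The differences of thiram from arsenic (0.77 ± 0.38 (SE, adjusted p = 0.17)) and cadmium (-0.53 ± 0.47 (SE, adjusted p = 0.757)) did not pass the test, and that from copper did (4.14 ± 0.41 (SE, adjusted p = 2.41e-12)). MT2A, flat with thiram, had 1.24 ± 0.24 with cadmium, and the difference was -1.2 ± 0.32 (SE, adjusted p = 0.0143).

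RGS16 was also higher with thiram than with each of the others, 8.07 ± 0.21 against 3.66 ± 0.21, 0.55 ± 1.41 and -0.52 ± 0.35 for arsenic, cadmium and copper. The differences were 4.41 ± 0.36 (SE, adjusted p = 1.35e-16), 7.52 ± 0.72 (SE, adjusted p = 1.14e-13) and 8.58 ± 0.41 (SE, adjusted p = 8.12e-30). FOS had 4.42 ± 0.23 with thiram and 2.54 ± 0.22 with arsenic, and the thiram effect was larger by 1.88 ± 0.36 (SE, adjusted p = 5.07e-05).

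HSPA1A, ZFAND2A and HSPA5 had larger folds with cadmium than with thiram. HSPA1A had 4.11 ± 0.13 with thiram, 4.7 ± 0.13 with arsenic, 7.31 ± 0.15 with cadmium and 0.15 ± 0.17 with copper, and thiram differed from cadmium by -3.2 ± 0.23 (SE, adjusted p = 1.61e-18). ZFAND2A differed from cadmium by -5.24 ± 0.26 (SE, adjusted p = 4.03e-26). HSPA5 rose by 1.41 ± 0.08 with thiram and 4.28 ± 0.09 with cadmium, a difference of -2.88 ± 0.14 (SE, adjusted p = 5.20e-27). Of 24 chaperone genes, 10 had a lower thiram effect than cadmium effect, and 16 a higher one than copper. HMOX1 rose less with thiram than with arsenic, by -3.3 ± 0.35 (SE, adjusted p = 2.90e-11). The autophagy gene MAP1LC3B differed from arsenic by -2.07 ± 0.15 (SE, adjusted p = 2.42e-17) and WARS1, a tRNA synthetase, by -2.53 ± 0.15 (SE, adjusted p = 3.69e-21). PPP1R15A stood at 5.81 ± 0.13 with thiram and 0.83 ± 0.16 with copper, a difference of 4.98 ± 0.22 (SE, adjusted p = 1.04e-28).

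Of the 15 mitochondrially coded genes, 13 were lower and 0 higher with arsenic, and 0 lower and 15 higher with cadmium. Of all 19835 genes 47.8% were called with arsenic, 26.3% higher and 21.6% lower, and 11.2% with cadmium, 6.2% higher and 5.03% lower. The cadmium counts are from the 2 libraries rich in mitochondrial reads. MT-ND5 had -1.39 ± 0.09, -1.4 ± 0.09, 1.64 ± 0.09 and -0.32 ± 0.08 with thiram, arsenic, cadmium and copper, and thiram differed from cadmium by -3.03 ± 0.13 (SE, adjusted p = 4.32e-30). All 15 genes of this list were lower with thiram than with cadmium by this test, and 10 lower than with copper. Against arsenic 6 were higher and 1 lower. The thiram effect was higher than the arsenic effect in 27 of 48 replication genes and in 52 of 76 ribosomal protein genes. SFRP1, a secreted Wnt antagonist, had -0.94 ± 0.14 with thiram and -3.91 ± 0.18 with arsenic, a difference of 2.97 ± 0.21 (SE, adjusted p = 2.42e-17).

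**Figure D4:**
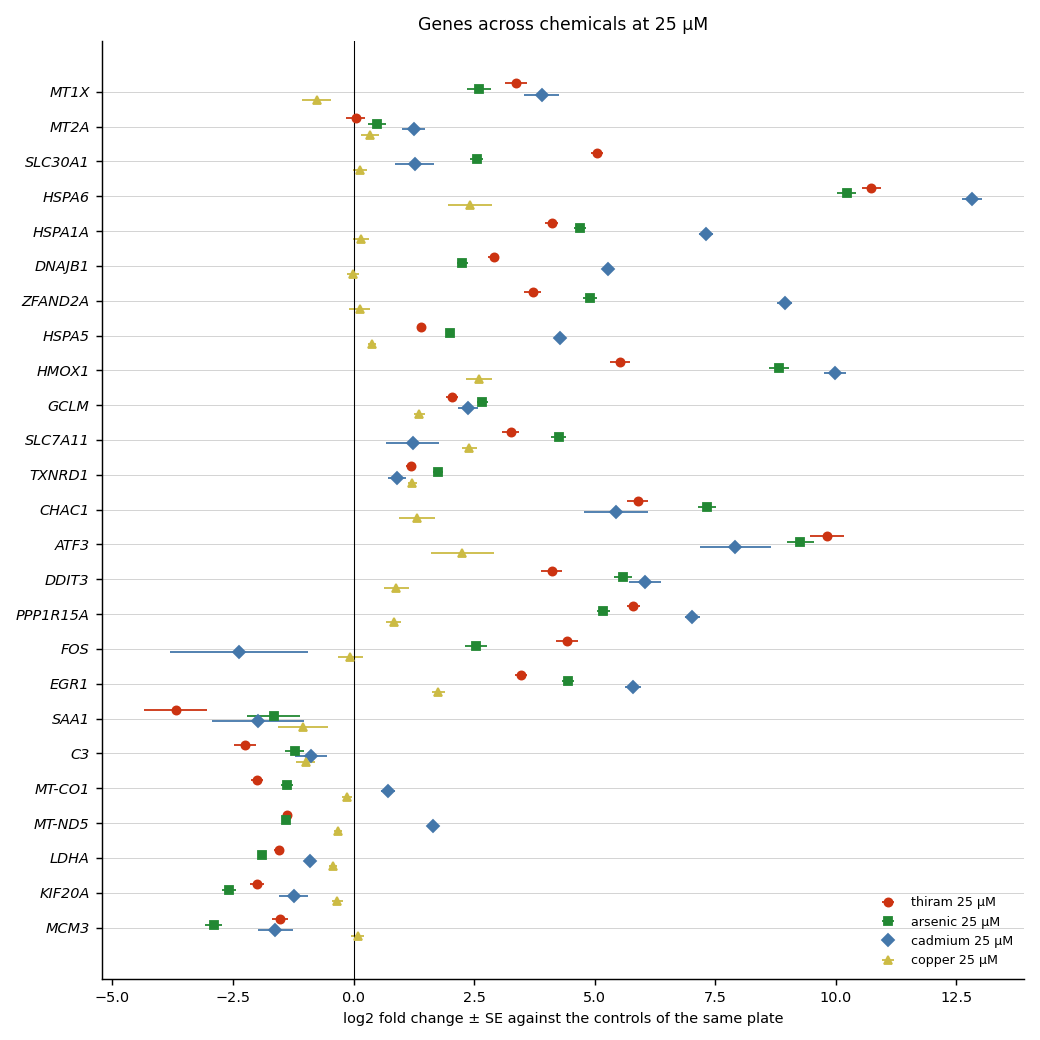
Log2 fold change with its SE for 25 genes after thiram, arsenic, cadmium and copper at 25 µM, each against the controls of its own plate. SLC30A1 is highest with thiram (5.05 against 2.55, 1.27 and 0.14), HSPA1A, ZFAND2A and HSPA5 are highest with cadmium, and MT-ND5 lies above 0 only with cadmium among the 4 chemicals.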

How the data were processed

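RNA was measured by plexWell, a plate-based method that tags the cDNA of each well with its own barcode, per the labels' protocols. FastQC, MultiQC, STAR and featureCounts and the build GRCh38 are named in the submitters' processing notes, while versions, annotation and strand setting are not given in the sources used. The deposited values are whole-number read counts per gene symbol for 34718 symbols, 1 file per library, not normalized as judged from the values.

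The members, gene lists and named genes were chosen with earlier results of these data known. All 95 libraries of the plate were fitted together with edgeR 4.0.16 in R 4.3.3 (limma 3.58.1), with 1 mean per chemical and dose, TMM scaling, filterByExpr by group (minimum count 10, minimum total 15) and the quasi-likelihood F-test. P-values were adjusted by Benjamini-Hochberg over the genes tested, and calls were made under an adjusted p of 0.05. The sets were fitted with 1 mean per chemical, dose and set. CPM used TMM-scaled library sizes, and the SE is the log2 fold change divided by the root of F. This SE comes from the test of each contrast and is an approximation. The SE of a difference can therefore be smaller than that of an effect within it, mainly where counts are low. For a group at 0 the bound used 3 counts summed over the group. Ratio intervals are exact at 95%.

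Named genes were the 12 highest and 12 lowest log2 fold changes with a mean log2 CPM of 4 or more and no overlap with the controls, the 2 called genes with the smallest p per list and direction, a list of key genes, the 5 clearest set differences, and the 3 clearest differences from each of arsenic, cadmium and copper. Genes named outside this rule (MT1B, MT1E, MT1G, MT1L, NR4A3, IL6, CSF2 and OAS1) were chosen after their values were seen. Some genes that the rule names, and 1 gene list, are not reported here. One cadmium library whose plate name and barcode disagree was left out.

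On simulated counts of 15532 genes for the comparison with the controls, 74% of genes changed 1.5-fold and 100% of those changed 2-, 4- or 8-fold were called, with 4 of 15332 unchanged genes. The simulated counts had the fitted dispersion alone, with no added spread per gene and no difference between sets. Only genes with a control mean of 2 CPM or more were changed. These rates therefore need not hold for the real libraries. Alternatives were RLE scaling, DESeq2 1.42.0, no filter on low counts, the groups of the comparison alone, a term for the set, libraries thinned to 1 total, either group of controls alone, no libraries under 25% of the plate's median total, and each thiram replicate left out. The lowest chi-square per degree of freedom between libraries of a group was 11.65, so no library was counted as a duplicate.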

Additional observations from a re-analysis of the deposited data

Results flagged for a closer look

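Of 192 named genes, 8 had a thiram library far from the other 3 by Dixon's criterion on the log2(CPM + 1) scale, against about 1 in 20 by chance. Replicate 4, the shallowest thiram library, was the lowest for ALDH1B1 (7.86 CPM, others from 18.3 to 20.7), ALDH3A1 (5.79 CPM, others from 14.4 to 16.6), ARC (511.5 CPM, others from 1001 to 1081), MCM3 (47.6 CPM, others from 80.2 to 87.8) and PLAUR (94.3 CPM, others from 134.5 to 139). Replicate 2 was the lowest for COX17 (41.4 CPM, others from 83.6 to 93.1) and the highest for CCDC69 (6.85 CPM, others from 0 to 0.414). Replicate 3 was the highest for MT1F (485 CPM, others from 191 to 213).

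The thiram effect of 23 named genes differed between the sets by the test of the difference itself, given as the log2 fold change in the higher-numbered set minus that in the lower-numbered set. Stress, metal and signalling genes that were higher in both sets differed as follows: ADM by 1.15 (adjusted p = 0.0341), CLU by 1.13 (adjusted p = 0.0187), CXCL8 by 1.35 (adjusted p = 0.0218), EGR1 by 0.98 (adjusted p = 0.0425), FOS by 1.71 (adjusted p = 0.00123), JUN by 1.65 (adjusted p = 0.00186), MT1F by 1.58 (adjusted p = 0.0222) and MT1X by 1.25 (adjusted p = 8.90e-05). SLC30A1, also higher in both, differed by -0.82 (adjusted p = 0.0485). Genes with a log2 fold change below 0 in both sets were further below 0 in the higher-numbered one: CSF3 by -2.80 (adjusted p = 3.08e-12), CYC1 by -0.54 (adjusted p = 0.021), DUSP1 by -0.62 (adjusted p = 0.00268) and ENO1 by -0.36 (adjusted p = 0.00268). The same holds for KRT18 by -0.70 (adjusted p = 0.00628), KRT5 by -0.99 (adjusted p = 2.28e-05), MT-CO1 by -0.80 (adjusted p = 5.08e-09), NFKBIA by -1.36 (adjusted p = 0.000324) and TUBA1B by -0.68 (adjusted p = 0.00123). ANGPTL4 differed by -1.63 (adjusted p = 3.08e-12) and KRT81 by -1.11 (adjusted p = 7.37e-19), with a value near 0 in the lower-numbered set. MT-RNR2 differed by 1.27 (adjusted p = 1.26e-20), MTRNR2L12 by 2.34 (adjusted p = 2.80e-17) and MKI67 by 1.03 (adjusted p = 0.000594), each below 0 in the lower-numbered and above 0 in the higher-numbered set.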

How the results depend on the processing

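The number of genes called against the controls ran from 4010 with controls 57 to 64 only to 6723 with DESeq2, beside 5516 in the comparison as reported. In the lower-numbered set it was 5644 after thinning all libraries to 5.70 M counts and 1771 to 2208 without 1 of its thiram replicates. In the higher-numbered set it was 1598 to 2777 without 1 of its thiram replicates, and for the difference between sets 91 to 172. The cause of these moves beyond fewer libraries was not tested. MKI67, not called, was at 0.055 with DESeq2, and ran from -0.47 (without replicate 4) to 0.085 (without replicate 1), with 0.027 without replicate 2, in place of -0.12. Of 192 named genes, controls 57 to 64 alone ended 20 calls, leaving out replicate 3 ended 16, replicate 4 12, replicate 1 8 and replicate 2 5, and RLE scaling and DESeq2 ended 2 each. Thiram replicates are numbered like those of the other doses but deviated together only weakly, with same-number correlations of 0.015, 0.013, 0.012 and 0.008 between 25 and 2.5 µM. Over the 16 thiram libraries, 4313 genes differed between these doses with the replicate number as a block and 4178 without it. Replicate 4, with 2.46 M counts, sets the lowest level that can be read: a gene with 0 counts over the 4 libraries is bounded by 3 counts over the group.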

Other observations

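The following splits were chosen after the data were seen. Of 432 tested genes named ZNF, which code for zinc finger proteins and mostly for transcription factors, 79 were higher and 15 lower, with a median log2 fold change of 0.27 against -0.05 for all protein-coding genes. Of these ZNF genes 18.3% were higher and 3.47% lower, beside 18.1% and 17.8% of all protein-coding genes, so the higher share is that of the class and the lower share is below it. The ZNF genes had a median average log2 CPM of 2.42 against 4.19 for the class, and the part of depth in the lower share was not tested. The lower-numbered set called 38 higher and 9 lower, and the higher-numbered set 42 and 6.

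Protein-coding genes with a mean log2 CPM of 2 or more were also divided by the genomic span that RefSeq gives them. Of 1908 genes under 10 kb, 17.4% were higher and 36.1% lower, with a median log2 fold change of -0.30. Of 1855 genes over 100 kb, 24.7% were higher and 13.2% lower, with a median of 0.13. Genes from 10 to 50 kb and from 50 to 100 kb lay between them, with medians of -0.11 and -0.02. The medians had the same order in both sets, from -0.24 to 0.07 in the lower-numbered and from -0.35 to 0.14 in the higher-numbered set. The span bins also differed in expression, with median average log2 CPM falling from 5.47 to 4.45, and its part in the order was not tested.

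Single members of the fibroblast marker list went in opposite directions. POSTN, a matrix protein, was at 23.4 to 43.5 CPM with thiram against 0 to 10.6 CPM in the controls, and DCN, a proteoglycan and the most abundant of them in the controls, was at 4.14 to 17.2 CPM against 27.3 to 74.7 CPM. COL1A1 was at 0 to 9.84 CPM against 0 to 8.26 CPM. In the list of hormone-responsive luminal cells, the factor FOXA1 was at 19.3 to 38.5 CPM against 0.33 to 14.5 CPM, and the growth factor AREG was at 198 to 889 CPM against 702 to 917 CPM, so its groups overlapped. GATA3 was at 21 to 45.1 CPM against 0.606 to 29.7 CPM, also with overlap. ESR1, PGR and PRLR were at 0 in every thiram library and at a median of 0 in the controls.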
